A study of Mus musculus with 4 samples.

Results

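Paired immunoglobulin-like receptors were followed through the unannotated transcripts of mouse granulocyte-monocyte progenitors, that is, through transcripts listed as lying outside the reference annotation. The members were NCBI gene number 18729's listed transcripts and those of any gene whose symbol starts with Pira, Pirb or Lilr. The GENCODE M21 annotation pairs that number with Gm15931. RefSeq's table gives Gm15931 a different number, so the name Gm15931 is only a label below for the transcripts listed under the first of these numbers. By their running numbers, 6 of these transcripts fall outside the reference position of that pseudogene, as described below. There were 29 member transcripts of 6 genes, out of 8219 transcripts listed in the series. Gm15931 had 9 of them, Pirb 6, Lilr4b 5, Lilrb4a 4, Pira2 3 and Pira1 2, and Lilra6 and Lilra5 had none. Annotated forms of these genes are not part of the values, so every sum, share and order below covers unannotated forms alone. Gm15931 itself was chosen by the balance among its transcripts, which differed between the genotypes in these same libraries, so its values are a description and come without a p-value.

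The progenitors came from bone marrow of MST1-deficient mice and of wild-type mice, with 2 libraries per genotype and the cells of 10 mice pooled in each library. Cells of both groups had been sorted, placed in medium with serum and left without drug. The labels give no strain, sex, age, allele or batch, and do not say which gene MST1 stands for. No unannotated transcript of Stk4 or of Mst1 was listed, so the genotypes rest on the labels alone. Estimated counts over all listed transcripts came to 928977 and 1002807 in MST1-deficient replicates 1 and 2, against 1079382 and 947305 in wild-type replicates 1 and 2. The cell type could be checked only in part, since 12 of 16 progenitor genes, among them Cd34, Mpo and Elane, had no unannotated transcript. The summed FPKM of the 4 that had one (Kit, Gfi1, Csf3r and Runx1) was 81.9 and 102 in MST1-deficient libraries and 88.8 and 63.3 in wild-type libraries. FPKM is the estimated count scaled to transcript length and library size. The 4 Y chromosome genes Kdm5d, Uty, Ddx3y and Eif2s3y summed to 23.4 and 14.8 FPKM in MST1-deficient libraries, against 3.60 and 0 FPKM in wild-type libraries. Whether the pools differed in the sexes of the mice was not tested.

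Paired receptors come in activating and inhibitory forms whose outer parts are nearly alike. In the mouse, the Pira genes encode activating receptors that signal through the Fc receptor gamma chain (Fcer1g), and Pirb encodes the inhibitory partner, whose tail recruits the phosphatases Ptpn6 and Ptpn11. Both bind MHC class I molecules and are made by myeloid cells and B cells. Lilrb4a, also known as gp49B, is another inhibitory receptor of myeloid and mast cells, and Lilr4b, or gp49A, is its close relative without the inhibitory tail.

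On GRCm38, the build that mm10 names, Pirb lies at chr7:3712505-3720382, Pira1 at chr7:3731626-3739943 and Pira2 at chr7:3836808-3845104, all on the minus strand. Lilr4b lies at chr10:51480612-51486329 and Lilrb4a at chr10:51490898-51496613, both on the plus strand. Gm15931 is an unprocessed pseudogene at chr7:4274189-4282645 on the plus strand in GENCODE M21. That annotation also calls Pira1 a polymorphic pseudogene, whereas RefSeq calls it protein coding.

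The copies on chromosome 7 are close enough that reads cannot always be assigned to one of them. The following stretches of the GENCODE M21 reference transcripts show how alike the reference copies are. Each runs 5′ to 3′ on the strand of its gene, with capitals at bases that differ from Gm15931. The first set is from exon 5, the most Pirb-like of the longer exons of Gm15931 (98.6% over 282 bases), at chr7:4276520-4276639 in Gm15931 (plus strand), chr7:3737359-3737478 in Pira1, chr7:3842522-3842641 in Pira2 and chr7:3717636-3717755 in Pirb (minus strand).
Gm15931: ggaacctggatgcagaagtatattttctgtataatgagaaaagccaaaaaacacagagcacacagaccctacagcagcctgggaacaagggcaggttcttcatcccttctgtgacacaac
Pira1: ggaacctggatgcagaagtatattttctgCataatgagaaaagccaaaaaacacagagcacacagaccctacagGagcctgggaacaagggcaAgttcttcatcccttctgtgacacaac
Pira2: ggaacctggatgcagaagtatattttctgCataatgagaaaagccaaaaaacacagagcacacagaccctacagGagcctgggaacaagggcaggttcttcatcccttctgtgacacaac
Pirb: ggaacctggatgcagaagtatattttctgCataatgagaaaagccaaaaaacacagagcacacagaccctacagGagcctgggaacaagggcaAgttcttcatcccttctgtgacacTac

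Over these 120 bases, Pira1 differed from Gm15931 at 3 positions, Pira2 at 2 and Pirb at 4. The second set is from exon 6, the exon least like that of Pirb (92.9% over 309 bases), at chr7:4281368-4281487 in Gm15931 (plus strand), chr7:3736935-3737054 in Pira1, chr7:3842098-3842217 in Pira2 and chr7:3717213-3717332 in Pirb (minus strand).
Gm15931: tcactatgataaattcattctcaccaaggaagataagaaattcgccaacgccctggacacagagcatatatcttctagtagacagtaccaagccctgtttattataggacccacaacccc
Pira1: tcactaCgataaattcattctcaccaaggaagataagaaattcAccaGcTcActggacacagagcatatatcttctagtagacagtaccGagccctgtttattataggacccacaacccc
Pira2: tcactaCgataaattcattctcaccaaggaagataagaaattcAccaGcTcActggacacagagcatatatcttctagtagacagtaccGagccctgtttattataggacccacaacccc
Pirb: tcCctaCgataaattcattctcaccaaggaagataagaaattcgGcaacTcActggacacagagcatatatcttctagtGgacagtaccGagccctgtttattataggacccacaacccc

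Here Pira1 and Pira2 differed from Gm15931 at 6 positions each and Pirb at 7. Pira1 and Pira2 were identical to each other in this stretch and differed at 1 position in the first one. Over the whole reference transcripts, Gm15931 shared 96.9% of its aligned bases with Pirb, 96.3% with Pira1, 96.1% with Pira2 and 95.0% with Lilra6. Pira1 and Pira2 shared 99.5%, and Pira1 and Pirb 92.5%. Gm15931 was compared with Pirb over 1852 bases, and Pira1 and Pira2 were each compared with Pirb over 2558 bases. These percentages cover unlike stretches, so they do not rank the copies by nearness to Pirb.

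**Figure D1:**
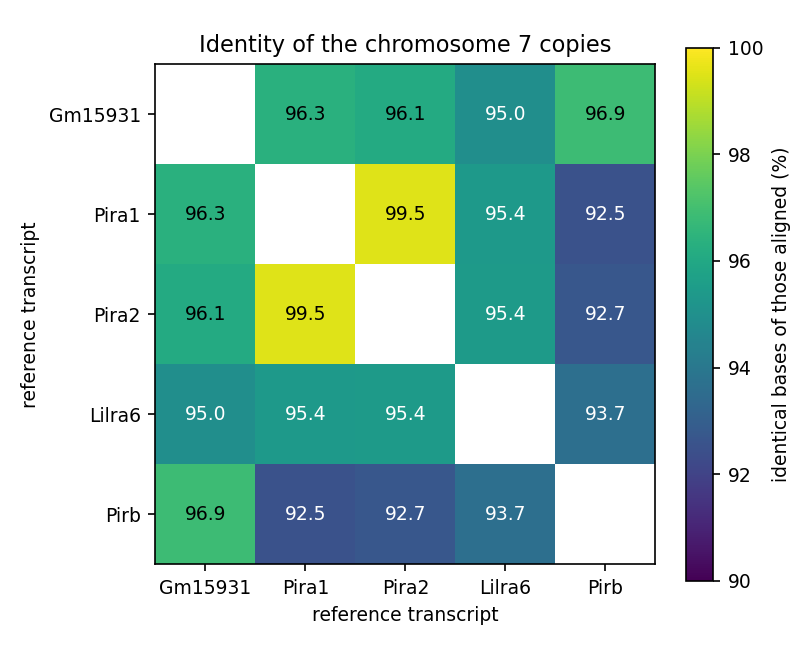
Each cell gives the percentage of identical bases among those aligned between the GENCODE M21 reference transcripts of 2 genes of the chromosome 7 cluster, on a colour scale from 90 to 100%. Pira1 and Pira2 stand apart as the closest pair at 99.5%, and Gm15931 is as near as 96.9% to Pirb.

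A sliding window of 50 bases gave the share of each reference transcript that another annotated gene also holds. It was 40.9% for Gm15931, 37.3% for Pirb, 91.3% for Pira1, 94.0% for Pira2 and 28.5% for Lilra6. On chromosome 10 it was 24.3% for Lilr4b and 100% for Lilrb4a, and counting only genes of the receptor family it was 22.9% for Lilr4b and 27.8% for Lilrb4a. Nearly any such stretch of the Pira1 or Pira2 reference also stands in another gene, while most of the Pirb and Gm15931 references does not. The chromosome 10 pair Lilr4b and Lilrb4a shared 96.6% of aligned bases with each other. How the authors divided reads among copies is not given in the sources used here, so every value below carries that uncertainty. The unannotated transcripts themselves have no sequence in the files, so the identities and window shares describe the reference copies alone. How well reads of the listed forms could be told apart was not tested.

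The running numbers of the transcripts follow the genome, since of 5033 neighbouring pairs of different genes on 1 chromosome 99.3% had the later start for the later number. The 9 transcripts of Gm15931 fell in 2 runs. The first run, of 6 transcripts, comes straight after those of Pirb and is interleaved with those of Pira2. The second run, of the 4902-, 4905- and 5137-base transcripts, comes after Leng8 (from chr7:4137013) and before Ncr1 (from chr7:4337715), the interval that holds the reference position of Gm15931. The first run, which holds the 2071-, 2953-, 3321- and 3011-base forms, is thus out of the place the reference gives that gene. So is Pira1, whose transcripts are numbered after those of Pira2. The files give no coordinates for these transcripts, so their true positions were not tested.

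Summed over its forms, Gm15931 was at a similar level in both genotypes. Its 9 transcripts summed to 307 and 258 estimated counts in MST1-deficient libraries and to 339 and 213 in wild-type libraries. As FPKM the sums were 15.0 and 10.6 in MST1-deficient libraries (mean 12.8 ± 3.1, SD, n = 2) and 16.9 and 11.7 in wild-type libraries (mean 14.3 ± 3.7, SD, n = 2). The ranges overlapped, and the log2 difference fitted to counts was 0.13 with a standard error of 0.27. The sign of so small a difference was not stable. By FPKM the difference was -0.15 (limma on the log2(FPKM + 0.5) scale), and by counts without wild-type replicate 2 it was -0.08.

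What differed was the make-up of that sum. The 2071-base transcript, the leading unannotated form in wild-type cells, had 2.60 and 2.02 FPKM in MST1-deficient libraries, against 10.97 and 8.19 FPKM in wild-type libraries. These rested on 34.8 and 33.5 estimated counts in MST1-deficient libraries and 169 and 117 in wild-type libraries. Both MST1-deficient values lay below both wild-type values, and the fitted log2 difference was -1.98. Since the gene was chosen by differences of this kind in these libraries, the lack of overlap is a description and no support.

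The 2953-base transcript showed the opposite pattern, with 3.15 and 2.74 FPKM in MST1-deficient libraries and no listing in either wild-type library. It had 61.4 and 66.0 estimated counts in MST1-deficient libraries. Scaled for library size, its mean in MST1-deficient libraries was 20.5-fold a floor of 3 counts in a wild-type library. That floor covers counting error only and not how reads were divided among like forms, so it is no bound on the difference between genotypes. The 3321-base transcript was listed in all 4 libraries, at 3.81 and 2.31 FPKM in MST1-deficient libraries, against 0.79 and 1.37 FPKM in wild-type libraries. Its groups did not overlap either, and the fitted log2 difference was 1.52, again as a description.

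**Figure D2:**
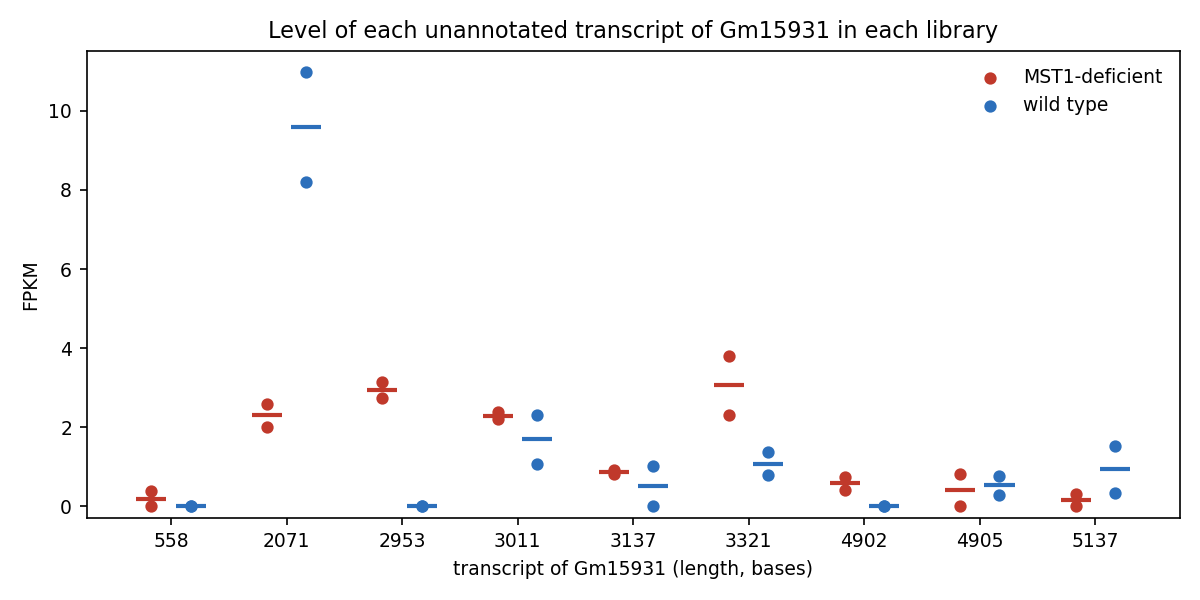
FPKM of each of the 9 unannotated transcripts of Gm15931, ordered by length in bases, with 1 point per library, MST1-deficient left of wild type, and bars at the group means (n = 2 each). The 2071-base form lies at 2.02 to 2.60 FPKM in MST1-deficient and 8.19 to 10.97 FPKM in wild-type libraries, and the 2953-base form is at 0 in wild-type libraries.

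These 3 forms, those with the widest share differences in a gene chosen by its balance, were also summed as a description. The 2953- and 3321-base transcripts together had 145 and 129 counts in MST1-deficient libraries, against 20.1 and 32.4 in wild-type libraries. With the 2071-base transcript added, the 3 forms had 180 and 162 counts in MST1-deficient libraries and 189 and 150 in wild-type libraries, so their sum overlapped between the genotypes. By FPKM, the 2953- and 3321-base transcripts together had 6.96 and 5.05 in MST1-deficient libraries, against 0.79 and 1.37 in wild-type libraries, and all 3 forms had 9.56 and 7.07 in MST1-deficient libraries, against 11.8 and 9.56 in wild-type libraries. All 3 are in the first run of numbers. That run as a whole had 245 and 240 counts in MST1-deficient libraries and 266 and 173 in wild-type libraries. The second run had 62.1 and 17.2 counts in MST1-deficient libraries and 72.7 and 39.7 in wild-type libraries.

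Of the other 6 transcripts of Gm15931, the 3011-base form was at a level like that of the 2071-base form in MST1-deficient libraries. It had 2.38 and 2.21 FPKM in MST1-deficient libraries and 2.31 and 1.08 FPKM in wild-type libraries, with overlapping groups. None of the other 5 passed 1.54 FPKM in a library. The 3137-base transcript had 0.81 and 0.93 FPKM in MST1-deficient libraries and 1.01 and 0 FPKM in wild-type libraries. The 4902-base transcript was listed only in MST1-deficient libraries, at 0.74 and 0.42 FPKM. On 24.2 and 17.2 counts, its mean was 6.80-fold a floor of 3 counts in a wild-type library, which again covers counting error only. Its neighbour of 4905 bases, only 3 bases longer, had 0.83 and 0 FPKM in MST1-deficient libraries and 0.30 and 0.77 FPKM in wild-type libraries. The 5137-base transcript had 0.31 and 0 FPKM in MST1-deficient libraries and 1.54 and 0.33 FPKM in wild-type libraries, and the 558-base transcript was listed in MST1-deficient replicate 1 alone, on 1.15 counts. A value of 0 here means that the transcript was not listed in that library.

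Expressed as a share of the summed FPKM of Gm15931, the 2071-base transcript made up 17.3% and 19.0% in MST1-deficient libraries, against 64.8% and 69.8% in wild-type libraries. The mean shares were 18.2% ± 1.2 in MST1-deficient libraries, against 67.3% ± 3.5 in wild-type libraries (SD, n = 2 each), a difference of -49.1 percentage points. The 2953-base transcript held 20.96% and 25.8% in MST1-deficient libraries and none of either wild-type library's sum. For the 3321-base transcript the shares were 25.3% and 21.7% in MST1-deficient libraries, against 4.67% and 11.7% in wild-type libraries. The 3011-base transcript held 15.8% and 20.8% in MST1-deficient libraries and 13.7% and 9.20% in wild-type libraries. Among these unannotated forms, MST1-deficient libraries thus had 4 with shares between 15.8% and 25.8%, where wild-type libraries had a single leading form.

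The share of the 2071-base form depends on what it is divided by. By estimated counts, which give long transcripts more weight, it was 12.2% ± 1.2 in MST1-deficient libraries, against 52.6% ± 3.8 in wild-type libraries (SD, n = 2 each). Among the 4 transcripts that reached an FPKM of 1 in at least 2 libraries, it was 21.8% in both MST1-deficient libraries, against 78.0% and 77.0% in wild-type libraries. Between these scales the difference ranged from -55.7 to -40.4 points. An exact permutation test of 2 against 2 libraries cannot go below a 2-sided p of 0.33, and none was made.

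**Figure D3:**
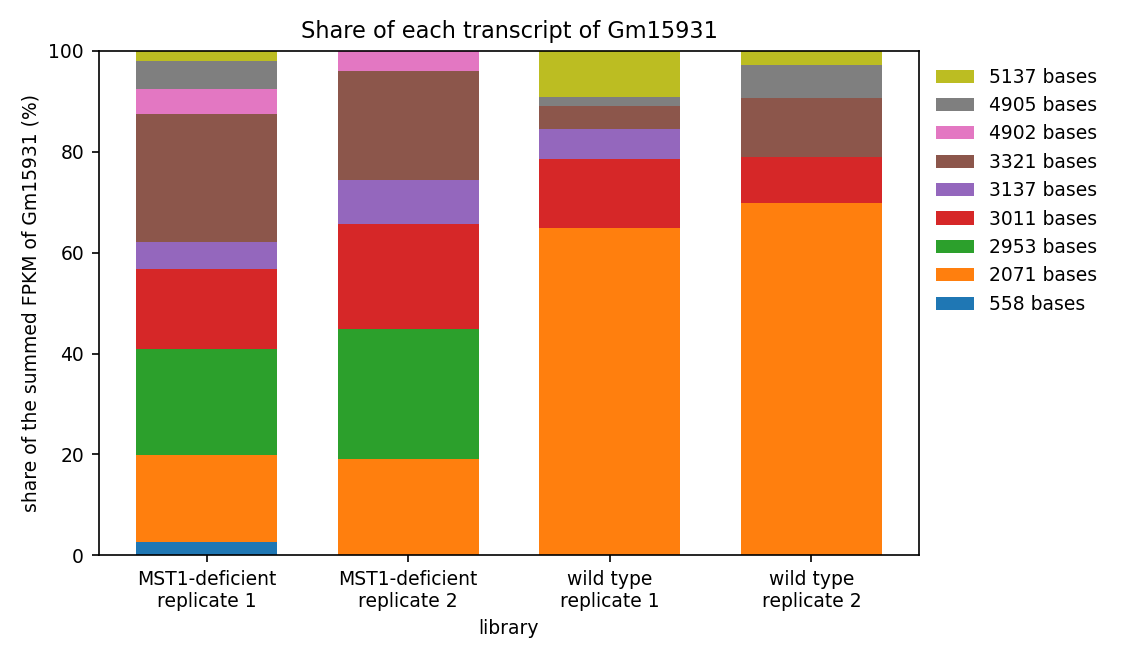
Stacked bars give the share (%) of the summed FPKM of Gm15931 that each of its 9 transcripts held in each library, MST1-deficient replicates left and wild-type replicates right. The 2071-base form fills 17.3% and 19.0% of the MST1-deficient bars and 64.8% and 69.8% of the wild-type bars.

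Turning to the other receptors, 20 of the 29 member transcripts reached an FPKM of 1 in at least 2 libraries and were fitted with all 4661 such transcripts, 4 of them from Gm15931. None of the 16 from the other genes passed an adjusted p of 0.05 in edgeR's quasi-likelihood test. The background was 0.0% of 4661 transcripts, with 5.26% at an unadjusted p under 0.05 and 2.21% called by DESeq2, which called none of the 16 either. Of the 16, both MST1-deficient values lay above both wild-type values for 1 transcript and below for 3, where the background was 13.7% above, 19.9% below and 33.6% without overlap in either direction. A transcript that passed the filter through 1 group alone had to be high there, so these counts describe the transcripts fitted and not all members.

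The sum over a gene's unannotated transcripts gave the order of the receptors per length. In MST1-deficient libraries, the mean summed FPKM ran from Lilrb4a (87.3 ± 29.8) and Lilr4b (76.7 ± 5.5) through Pirb (41.4 ± 17.2) and Gm15931 (12.8 ± 3.1) to Pira2 (9.56 ± 7.71) and Pira1 (5.78 ± 3.24). In wild-type libraries the order was the same, with Lilrb4a at 91.1 ± 22.7, Lilr4b at 90.6 ± 8.1, Pirb at 68.2 ± 13.6, Gm15931 at 14.3 ± 3.7, Pira2 at 7.15 ± 2.04 and Pira1 at 7.04 ± 1.0 (SD, n = 2 each). Neighbours whose libraries overlapped were Lilrb4a with Lilr4b and Pira2 with Pira1 in both genotypes, and Gm15931 with Pira2 in MST1-deficient libraries only. The range of Pirb did not meet that of Gm15931 in either genotype. The place of Pira2 rests on a short form with few counts. By summed counts, Pira2 had 109 and 16.8 in MST1-deficient libraries and 16.2 and 10.1 in wild-type libraries, fewer in each library than Pira1 had.

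**Figure D4:**
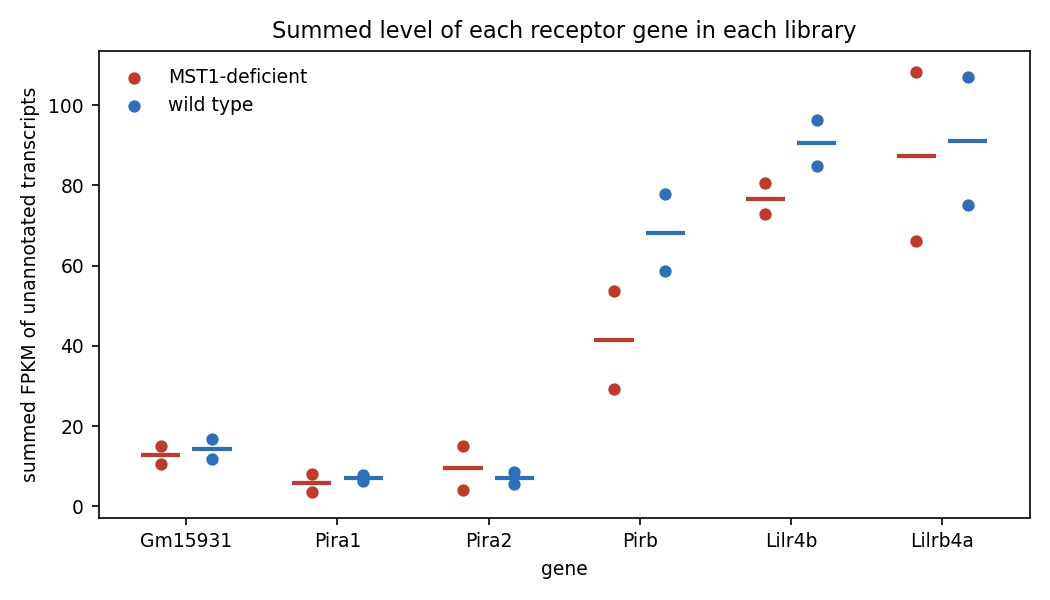
Summed FPKM of the unannotated transcripts of each receptor gene, with 1 point per library, MST1-deficient left of wild type, and bars at the group means (n = 2 each). Lilrb4a and Lilr4b are highest in both genotypes, and the Pirb points lie at 29.3 and 53.6 FPKM in MST1-deficient and 58.6 and 77.8 FPKM in wild-type libraries.

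For Pirb, the inhibitory receptor, the summed FPKM was 53.6 and 29.3 in MST1-deficient libraries, against 77.8 and 58.6 in wild-type libraries. Both MST1-deficient values were the lower ones, a pattern that 20.1% of 3406 gene sums showed. The fitted log2 difference was -0.67 with a standard error of 0.28, and it did not pass (adjusted p = 0.843 by edgeR, 0.542 by DESeq2 and 0.821 by limma). Only 1 of the 3406 gene sums passed in edgeR, a background of 0.0294%, with 6.08% at an unadjusted p under 0.05, and DESeq2 called 1.59%. In all, 33.6% of gene sums had groups without overlap. Leaving out 1 library at a time gave log2 differences from -0.99 (MST1-deficient replicate 1 left out) to -0.42 (MST1-deficient replicate 2 left out).

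The forms of Pirb did not all follow its sum. Its 2698-base transcript had 5.73 and 1.16 FPKM in MST1-deficient libraries, against 17.5 and 12.6 FPKM in wild-type libraries. The log2 difference was -2.16 with a standard error of 0.77, with an unadjusted p of 0.0485 and an adjusted p of 0.938 by edgeR. The 2861-base transcript lay the other way, with 9.60 and 6.53 FPKM in MST1-deficient libraries, against 5.46 and 5.13 FPKM in wild-type libraries. Its log2 difference of 0.64 (standard error 0.34) had an adjusted p of 0.999 by edgeR. Neither difference passed, though the groups of each did not overlap.

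Among the remaining forms of Pirb, the 3322-base transcript had 11.3 and 7.87 FPKM in MST1-deficient libraries, against 18.1 and 15.9 FPKM in wild-type libraries, a log2 difference of -0.79 with a standard error of 0.24 (adjusted p = 0.806 by edgeR). The 2730-base transcript, the most abundant form, had 19.7 and 10.97 FPKM in MST1-deficient libraries and 24.97 and 19.5 FPKM in wild-type libraries, so that MST1-deficient replicate 1 just passed wild-type replicate 2. For the 2941-base transcript the values were 7.33 and 2.73 FPKM in MST1-deficient libraries and 10.8 and 5.49 FPKM in wild-type libraries. The 2738-base transcript was listed in wild-type replicate 1 alone, at 0.99 FPKM.

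As shares of the summed FPKM of Pirb, the 2698-base form held 10.7% and 3.96% in MST1-deficient libraries, against 22.4% and 21.5% in wild-type libraries. The 2861-base form held 17.9% and 22.3% in MST1-deficient libraries, against 7.02% and 8.76% in wild-type libraries. The 2730-base form made up 36.6% and 37.5% in MST1-deficient libraries and 32.1% and 33.3% in wild-type libraries. In limma's diffSplice test, the balance among the 5 fitted Pirb transcripts had an unadjusted p of 0.0577 and an adjusted p of 0.481. Of 909 genes tested for balance, 1.87% passed and 10.9% had an unadjusted p under 0.05. Taken singly against the rest of the gene, the 2698-base form differed by -1.86 on the log2 scale (adjusted p = 0.294) and the 2861-base form by 1.63 (adjusted p = 0.396) in that test.

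**Figure D5:**
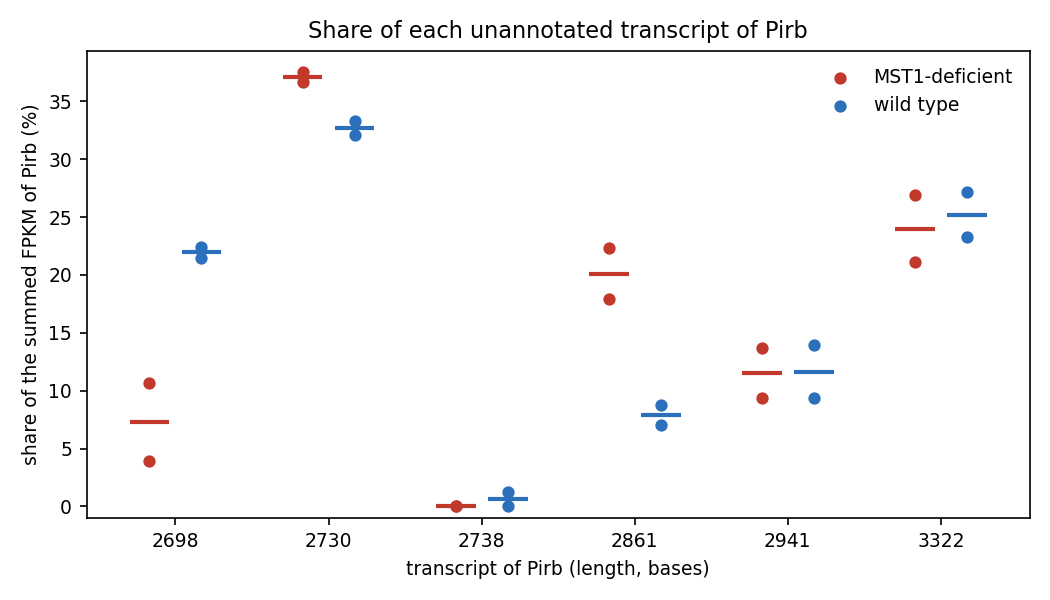
Share (%) of the summed FPKM of Pirb held by each of its 6 unannotated transcripts, ordered by length in bases, with 1 point per library, MST1-deficient left of wild type, and bars at the group means (n = 2 each). The 2698-base form lies at 3.96 to 10.7% in MST1-deficient and 21.5 to 22.4% in wild-type libraries, and the 2861-base form at 17.9 to 22.3% in MST1-deficient and 7.02 to 8.76% in wild-type libraries.

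The activating receptors Pira1 and Pira2 were each represented by 1 form in all libraries and by others in 1 library. For Pira1, the 5011-base transcript had 8.07 and 3.49 FPKM in MST1-deficient libraries and 7.75 and 1.25 FPKM in wild-type libraries. Its 4487-base transcript was listed only in wild-type replicate 2, at 5.08 FPKM on 164 counts, and there made up 80.3% of the gene's FPKM. The leading form of Pira1 thus differed within a genotype, between wild-type replicates 1 and 2, and the cause was not tested. The summed counts of Pira1 were 272 and 145 in MST1-deficient libraries and 301 and 209 in wild-type libraries (log2 difference -0.20, adjusted p = 0.993 by edgeR).

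For Pira2, the 374-base transcript had 10.4 and 3.79 FPKM in MST1-deficient libraries and 8.59 and 5.71 FPKM in wild-type libraries, on no more than 16.97 counts. The 3035-base transcript appeared only in MST1-deficient replicate 1, on 91.9 counts, and the 3432-base transcript only in MST1-deficient replicate 2, on 8.83 counts. Fitted to counts, the log2 difference of the sum was 2.36 with a standard error of 1.04 (adjusted p = 0.851 by edgeR). Without MST1-deficient replicate 1, this count-based difference was 0.46. On the log2(FPKM + 0.5) scale, the difference over all 4 libraries was 0.17 by limma.

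The 4 genes of the chromosome 7 cluster were also set against each other by their shares of the cluster's estimated counts. This is a description, and it includes Gm15931, which was chosen in these same libraries. Pirb held 59.8% and 62.5% of the cluster's counts in MST1-deficient libraries, against 72.3% and 73.7% in wild-type libraries. Gm15931 held 17.9% and 22.99% in MST1-deficient libraries, against 14.3% and 12.97% in wild-type libraries. Pira1 held 15.9% and 12.98% in MST1-deficient libraries, against 12.7% and 12.8% in wild-type libraries, and Pira2 held 6.35% and 1.503% in MST1-deficient libraries, against 0.68% and 0.62% in wild-type libraries. By counts, groups did not overlap for any of the 4 genes, with Pirb lower and the other 3 genes higher in MST1-deficient libraries. For Pira1 the gap was narrow, between 12.98% and 12.8%. The Pira2 share of 6.35% in MST1-deficient replicate 1 rested mostly on a form listed in that library alone. By FPKM, the shares of Pira1 did overlap, at 8.8% and 7.35% in MST1-deficient libraries and 6.98% and 7.685% in wild-type libraries. Those of Pirb, Gm15931 and Pira2 did not. Across all gene sums, 33.6% had FPKM groups without overlap, which is a background for single levels. None was made for shares within a cluster. The cluster as a whole had 1714 and 1121 counts in MST1-deficient libraries and 2372 and 1638 in wild-type libraries, whose ranges did overlap. These shares were not tested, and since they sum to 100%, a higher share of one gene goes with a lower share of others.

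The chromosome 10 pair was abundant and near equal between the genotypes. For Lilrb4a the summed FPKM was 108 and 66.2 in MST1-deficient libraries and 107 and 75.0 in wild-type libraries, with a log2 difference of 0.01 (standard error 0.27, adjusted p = 0.996 by edgeR). Its 4220-base form led with 47.8% and 49.4% of that sum in MST1-deficient libraries and 36.7% and 54.5% in wild-type libraries. Lilr4b summed to 80.6 and 72.8 FPKM in MST1-deficient libraries, against 96.3 and 84.9 FPKM in wild-type libraries, without overlap. Its log2 difference was -0.12 (standard error 0.20, adjusted p = 0.993 by edgeR).

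Each of the 9 transcripts of this pair was listed in all 4 libraries. The 1598-base form of Lilr4b was the one whose groups did not overlap, with 24.5 and 30.0 FPKM in MST1-deficient libraries, against 38.4 and 32.8 FPKM in wild-type libraries (adjusted p = 0.999 by edgeR). The 5658-base form had 29.0 and 24.9 FPKM in MST1-deficient libraries and 28.4 and 29.0 FPKM in wild-type libraries. The balance of forms had an adjusted p of 0.944 for Lilr4b and 0.958 for Lilrb4a in diffSplice.

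Partners of the receptors in signalling were seen through few unannotated transcripts, and none passed in edgeR. Of 16 genes on the activating side, 9 were listed and 4 tested, with a median log2 difference of 0.07 beside 0.01 over all gene sums. Without overlap, 1 of the 4 lay higher in MST1-deficient libraries and 1 lower, beside 13.6% and 20.1% of all gene sums. Pik3cd and Fgr, given below, are those genes. Fcer1g and Syk were not among those listed. Pik3cd, a catalytic subunit of phosphoinositide 3-kinase, had 51.3 and 38.2 FPKM in MST1-deficient libraries, against 27.3 and 32.0 FPKM in wild-type libraries (log2 difference 0.64, adjusted p = 0.790). Fgr, a Src-family kinase of myeloid cells, had 0 and 0.46 FPKM in MST1-deficient libraries, against 2.61 and 2.09 FPKM in wild-type libraries (adjusted p = 0.885).

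On the inhibitory side, 4 of 9 genes were listed and 3 tested, with a median log2 difference of -0.24. Without overlap, 0 of the 3 lay higher in MST1-deficient libraries and 1, Dok2, lower, beside 13.6% and 20.1% of all gene sums. Ptpn6 was not listed, and Ptpn11 had 3.13 and 6.72 FPKM in MST1-deficient libraries and 5.47 and 5.08 FPKM in wild-type libraries. Dok2, an adaptor that restrains myeloid signalling, had 15.0 and 9.47 FPKM in MST1-deficient libraries, against 26.0 and 29.6 FPKM in wild-type libraries. Its log2 difference of -1.14 (standard error 0.26) had an unadjusted p of 0.00869 and an adjusted p of 0.528 by edgeR. Among 15 genes that encode ligands or parts of them, only H2-Q4, an MHC class I gene, and Rtn4, which encodes the PirB ligand Nogo, were listed. H2-Q4 had 57.5 and 51.7 FPKM in MST1-deficient libraries and 57.6 and 57.5 FPKM in wild-type libraries (adjusted p = 0.996 by edgeR). Rtn4 had 1.18 and 1.58 FPKM in MST1-deficient libraries, against 1.71 and 1.66 FPKM in wild-type libraries (adjusted p = 0.993). For both ligand genes the MST1-deficient values lay below the wild-type ones, a pattern that 20.1% of all gene sums showed.

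Other paired or inhibitory receptors of myeloid cells gave 16 listed and 14 tested genes of 29, with a median log2 difference of -0.07 and no call. Both MST1-deficient values lay above both wild-type values for 1 of the 14 and below for 2, beside 13.6% and 20.1% of all gene sums. Treml2, a receptor of the TREM family, had 20.2 and 13.7 FPKM in MST1-deficient libraries, against 9.96 and 8.61 FPKM in wild-type libraries (adjusted p = 0.557 by edgeR). The inhibitory receptor Cd300a had 2.79 and 1.39 FPKM in MST1-deficient libraries, against 4.81 and 3.86 FPKM in wild-type libraries (adjusted p = 0.832). Siglecf, an inhibitory receptor of eosinophils, had 2.66 and 2.19 FPKM in MST1-deficient libraries, against 4.44 and 5.97 FPKM in wild-type libraries (adjusted p = 0.840).

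Genes next to the receptors in the leukocyte receptor complex were checked in the same way. Of 18, 6 were listed and 5 tested, with a median log2 difference of -0.09 and no call by edgeR. Without overlap, 2 of the 5 lay higher in MST1-deficient libraries and 1 lower, beside 13.6% and 20.1% of all gene sums. The genes named next are those. Ncr1, a natural killer cell receptor that follows Gm15931 in the numbering, had 9.86 and 7.63 FPKM in MST1-deficient libraries, against 5.41 and 4.93 FPKM in wild-type libraries (adjusted p = 0.691). Cnot3, which precedes Pirb, had 7.99 and 5.45 FPKM in MST1-deficient libraries, against 9.87 FPKM in both wild-type libraries (adjusted p = 0.896). Tarm1, an activating receptor of myeloid cells, had 2.16 and 2.71 FPKM in MST1-deficient libraries, against 1.11 and 1.18 FPKM in wild-type libraries (adjusted p = 0.849).

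Markers of other marrow cells were summed beside these results, since in bulk samples fewer cells of a type and less RNA per cell cannot be told apart. Of 11 eosinophil, basophil and mast cell markers, 5 were listed (Prg3, Ms4a2, Gata2, Alox15 and Il5ra). They summed to 114 and 127 FPKM in MST1-deficient libraries, against 152 and 191 FPKM in wild-type libraries, without overlap. A sum of this kind can rest mainly on 1 gene, and values of the 5 genes are not given here. Within each genotype, the eosinophil, basophil and mast cell sum was higher in replicate 2. The sums of the T and NK, B lineage, and monocyte, macrophage and dendritic cell markers were lower in replicate 2 of both genotypes. Those of the neutrophil, erythroid and megakaryocyte, and progenitor markers moved in opposite directions in the genotypes. With 2 libraries per genotype, these orders are a description. The 7 listed of 11 T and NK cell markers did not overlap either, with 25 and 15.7 FPKM in MST1-deficient libraries, against 42.5 and 35.8 FPKM in wild-type libraries. Ncr1, one of these markers, lay the other way, with 9.86 and 7.63 FPKM in MST1-deficient libraries, against 5.41 and 4.93 FPKM in wild-type libraries. Of single gene sums in the series, 33.6% had groups without overlap. Groups overlapped for the 5 listed of 12 neutrophil markers (54.8 and 70.6 FPKM in MST1-deficient, 128 and 56.7 FPKM in wild-type libraries) and the 4 listed of 11 B lineage markers (9.5 and 8.4 FPKM in MST1-deficient, 22.3 and 2.0 FPKM in wild-type libraries). They also overlapped for 3 listed of 14 monocyte, macrophage and dendritic cell markers (55.3 and 26.2 FPKM in MST1-deficient, 51.3 and 33.4 FPKM in wild-type libraries) and for 5 listed of 12 erythroid and megakaryocyte markers (59.9 and 41.7 FPKM in MST1-deficient, 58.3 and 73.5 FPKM in wild-type libraries). Prg2, Epx, Mcpt8, Cd3e, Ms4a1 and S100a9 had no unannotated transcript. The part of these cells in the receptor values was not tested.

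A search for patterns like those of Gm15931 compared its values with the rest of the series. By summed level, as the Euclidean distance of log2(FPKM + 0.5) over the 4 libraries among 3405 other genes, the nearest was Stx16, at 15.0 and 10.7 FPKM in MST1-deficient libraries and 17.4 and 12.2 FPKM in wild-type libraries. Fbrs, Epb41l2, Mtmr3 and Ubl3 came next. By the shares of the 2071-base form, among 2222 transcripts of 902 genes, the nearest was a 6801-base transcript of Nr3c1, the glucocorticoid receptor. It held 23.1% and 31.9% of its gene in MST1-deficient libraries, against 76.7% and 62.2% in wild-type libraries. The next were transcripts of Kmt2d, Fam222b, Nme6 and Zdhhc4. The nearest form lay at a Euclidean distance of 19.9 percentage points over the 4 libraries. These shares are the values that chose Gm15931, so the list is a description.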

How the data were processed

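Granulocyte-monocyte progenitor RNA, enriched on oligo-dT beads, was sequenced in 2 MST1-deficient and 2 wild-type libraries. The authors deposited estimated counts (expected counts) and FPKM for each unannotated transcript, per the file headers. The deposited transcript length was used as given. The submitters' processing notes name the build mm10. Aligner, assembler and estimator are not given in the sources used here. Deposited lists hold values above 0, and a missing transcript was set to 0. Of 5059 gene numbers, 5051 matched a RefSeq GRCm38.p6 symbol. The number 18729 did not and was named Gm15931 after GENCODE M21.

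The members and gene lists were chosen with earlier results of these data known. The rule for naming took all members, from each list the genes that passed or whose groups did not overlap (up to 4, by size of change) and Fcer1g, Ptpn6, Ptpn11 and B2m where listed, and the 5 nearest genes in level and in share. Estimated counts were rounded and fitted with edgeR 4.0.16 (quasi-likelihood, TMM, 2-sided; R 4.3.3) after keeping features that reached 1 FPKM in 2 or more of 4 libraries, with Benjamini-Hochberg adjustment over all features and a threshold of 0.05. Balance among transcripts was examined on the log2(FPKM + 0.5) scale by limma 3.58.1 (diffSplice), which treats a gene's transcripts as independent. DESeq2 1.42.0, limma, other filters, pseudocounts and libraries left out were alternatives. P-values measure the spread between 2 pools, which may be technical, and floors of 3 counts per library cover counting error only, since PCR copies were not marked.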

Additional observations from a re-analysis of the deposited data

How the results depend on the processing

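Across the alternatives, the direction of the Pirb sum (negative) and its side of the threshold held under limma, DESeq2 and each library left out. The number of transcripts called by edgeR was 0, against 5 by limma, 103 by DESeq2 and 2 among transcripts above 0 in all 4 libraries. For gene sums it was 1, against 6 by limma, 54 by DESeq2, 2 among those above 0 in all 4 libraries, and 0 to 15 with 1 library left out. Genes called for balance numbered 17, against 25 with a pseudocount of 0.1, 13 with a pseudocount of 1, 17 with median centring, 8 with no filter, 0 for transcripts above 0 in all 4 libraries and 0 to 2 with 1 library left out, of 909 genes in the main setting. With the replicate block, the calls were 0 transcripts, 0 gene sums and 0 genes for balance (lowest adjusted p = 0.0631). The shared numbers were not shown to pair the libraries, since there are only 2 pairs and their deviations correlated by 0.13 over both gene sums and transcripts. The share difference of the 2071-base form of Gm15931, -49.1 points, was -40.4 by estimated counts and -55.7 among the 4 filtered transcripts, and -51.6 to -46.7 with 1 library left out. The log2 difference of Lilrb4a, 0.01, was -0.0816 under limma, -0.22 without MST1-deficient replicate 1 and -0.14 without wild-type replicate 2, its lowest and highest with 1 library left out being -0.22 and 0.20. That of Pira1, -0.20, ran from -0.74 (MST1-deficient replicate 1 left out) to 0.18 (MST1-deficient replicate 2 left out). No cause of these shifts was tested. With 928977 to 1079382 listed counts per library, no form of Gm15931 had more than 169 counts in a library, which limits the precision of its shares.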
